A study of Rattus norvegicus with 40 samples.

Results

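The mRNAs of 10 genes that govern the passage of a cell through G1 were described in rat liver: the D-type cyclins Ccnd1, Ccnd2 and Ccnd3, the E-type cyclins Ccne1 and Ccne2, the kinases Cdk4 and Cdk6, the kinase inhibitors Cdkn1a (p21) and Cdkn1b (p27), and the transcription factor E2f1. They were chosen by gene symbol as the core of the switch into S phase, each through the transcript cluster (the set of array probes that stands for a gene) annotated with that symbol alone. Each of the 10 had exactly 1 such row among the 28826 transcript clusters of the array, and all 10 passed a filter on dim signals that left 10860 named transcript clusters for testing. The study asked how mTOR, the kinase that rapamycin inhibits, acts on mRNA translation during hepatic growth. It used 40 Affymetrix Rat Gene 1.0 ST arrays with RNA from 20 livers of Sprague Dawley rats. From each liver, polysomes (mRNAs loaded with several ribosomes, isolated on sucrose gradients) and whole tissue gave RNA, called polysome and total RNA below.

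There were 12 groups, formed by 3 models of growth, 2 treatments and 2 RNA fractions. Fetal rats received 50 µg of rapamycin each, or the solvent dimethyl sulfoxide (DMSO), on day 19 of gestation (E19), and their livers were taken 24 h later, with 4 livers per group. Adult rats of 125 to 150 g received 250 µg of rapamycin for each 100 g they weighed, or DMSO, 1 h before removal of most of the liver, and the remnant was taken 24 h after this partial hepatectomy, with 3 livers per group. Other adults of that weight were fasted for 48 h, injected with rapamycin at the same dose or with DMSO, refed 1 h later for 3 h and then killed, with 3 livers per group. The fetal and hepatectomy models stand for growth with cell division and the fasted/refed model for growth without it. Polysome preparations were pooled before extraction, per the labels' protocols, without a statement of what was pooled, so n counts the numbered replicates.

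In mammals, D-type cyclins bind Cdk4 and Cdk6 in response to growth signals, and these kinases begin to phosphorylate the retinoblastoma protein, which holds E2F factors in check. Freed E2F factors switch on the genes of DNA synthesis and also Ccne1, Ccne2 and E2f1 themselves, and cyclin E with Cdk2 then carries the cell into S phase. p21, a target of p53 that is known to be induced in regenerating rodent liver, and p27, which is largely controlled by destruction of its protein, bind these kinase complexes, and Ccnd1 is the D-type cyclin best known from liver regeneration.

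Promoter sequences (250 bases before to 50 bases after the gene start, RefSeq, build GRCr8) matched 5 of the 10 genes by symbol, Ccnd3, Ccne1, Cdk4, Cdkn1a and Cdkn1b, and not Ccnd1, Ccnd2, Ccne2, Cdk6 or E2f1. The promoter of Ccne1 (chr1:99927860-99928159, minus strand) is printed because this gene's level spanned the widest range over the 12 groups, with its 3 copies of the GC box GGGCGG in capitals. The promoter of Cdk4 (chr7:64771203-64771502, plus strand) is printed because its mRNA was higher on polysomes than in total RNA in all 3 models, with its 3 copies of CACGTG, the E-box letters bound by factors of the Myc family, in capitals.
Ccne1: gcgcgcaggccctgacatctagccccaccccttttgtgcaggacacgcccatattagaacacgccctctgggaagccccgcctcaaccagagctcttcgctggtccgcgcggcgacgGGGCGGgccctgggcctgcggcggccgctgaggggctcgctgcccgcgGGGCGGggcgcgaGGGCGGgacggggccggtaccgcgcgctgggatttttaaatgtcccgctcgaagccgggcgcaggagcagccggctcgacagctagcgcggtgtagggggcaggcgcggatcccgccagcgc
Cdk4: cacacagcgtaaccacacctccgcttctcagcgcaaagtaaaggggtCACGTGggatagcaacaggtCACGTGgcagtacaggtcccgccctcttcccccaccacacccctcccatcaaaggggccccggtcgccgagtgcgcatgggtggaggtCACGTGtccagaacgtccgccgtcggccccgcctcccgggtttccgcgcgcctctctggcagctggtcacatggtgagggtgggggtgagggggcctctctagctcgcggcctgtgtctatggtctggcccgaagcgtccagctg
Searched on both strands, GGGCGG occurred in 4 of the 5 promoters, those of Ccnd3, Ccne1, Cdk4 and Cdkn1b, and in 33.1% of all 33469 promoters of this length. CACGTG, which reads the same on both strands, occurred in that of Cdk4 and in 6.42% of all. The E2F letters TTCCCGC were in 0 of the 5 windows and in 4.21% of all promoters. Another E2F form, TTGGCGC, was in 0 of the 5 and in 2.26% of all. The form TTCGCGC was in 0 of the 5 and in 1.51% of all. CCAAT was found in Ccnd3 and Cdkn1b, against 37.5% of all, and TATAAA in 0 of the 5, against 14.2%. The marked copies overlapped none of the other motifs.

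Intensities are given below as log2 values of the authors' normalized intensities, so a difference of 1 is a doubling, and a level is compared only with other levels of the same gene. Median log2 intensities ran from 7.09 to 7.40 over the 40 arrays, and the number of arrays, not a read depth, limits the precision. The hepatocyte markers (8 genes, among them Alb and Hnf4a) averaged 13.53 to 13.92 on every array, but single genes differed more than this mean. In DMSO total RNA Hnf4a averaged 12.06 in fetal and 12.98 in fasted/refed livers, and Alb 14.34 and 14.43. The 8 measured erythroid markers, among them Klf1 and Ahsp, averaged 11.39 to 12.44 in fetal arrays, against 6.77 to 8.07 in adult arrays, and the 6 granulocyte markers 10.11 to 11.27 against 6 to 6.74. In bulk RNA a change in the share of a cell type and a change in RNA per cell cannot be told apart. The labels gave the 3 hepatectomy polysome DMSO arrays the time point of refeeding, against their titles, which were used. Their mitosis genes averaged 10.64 to 11.05, and those of all 6 fasted/refed polysome arrays 6.06 to 6.37.

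**Figure D1:**
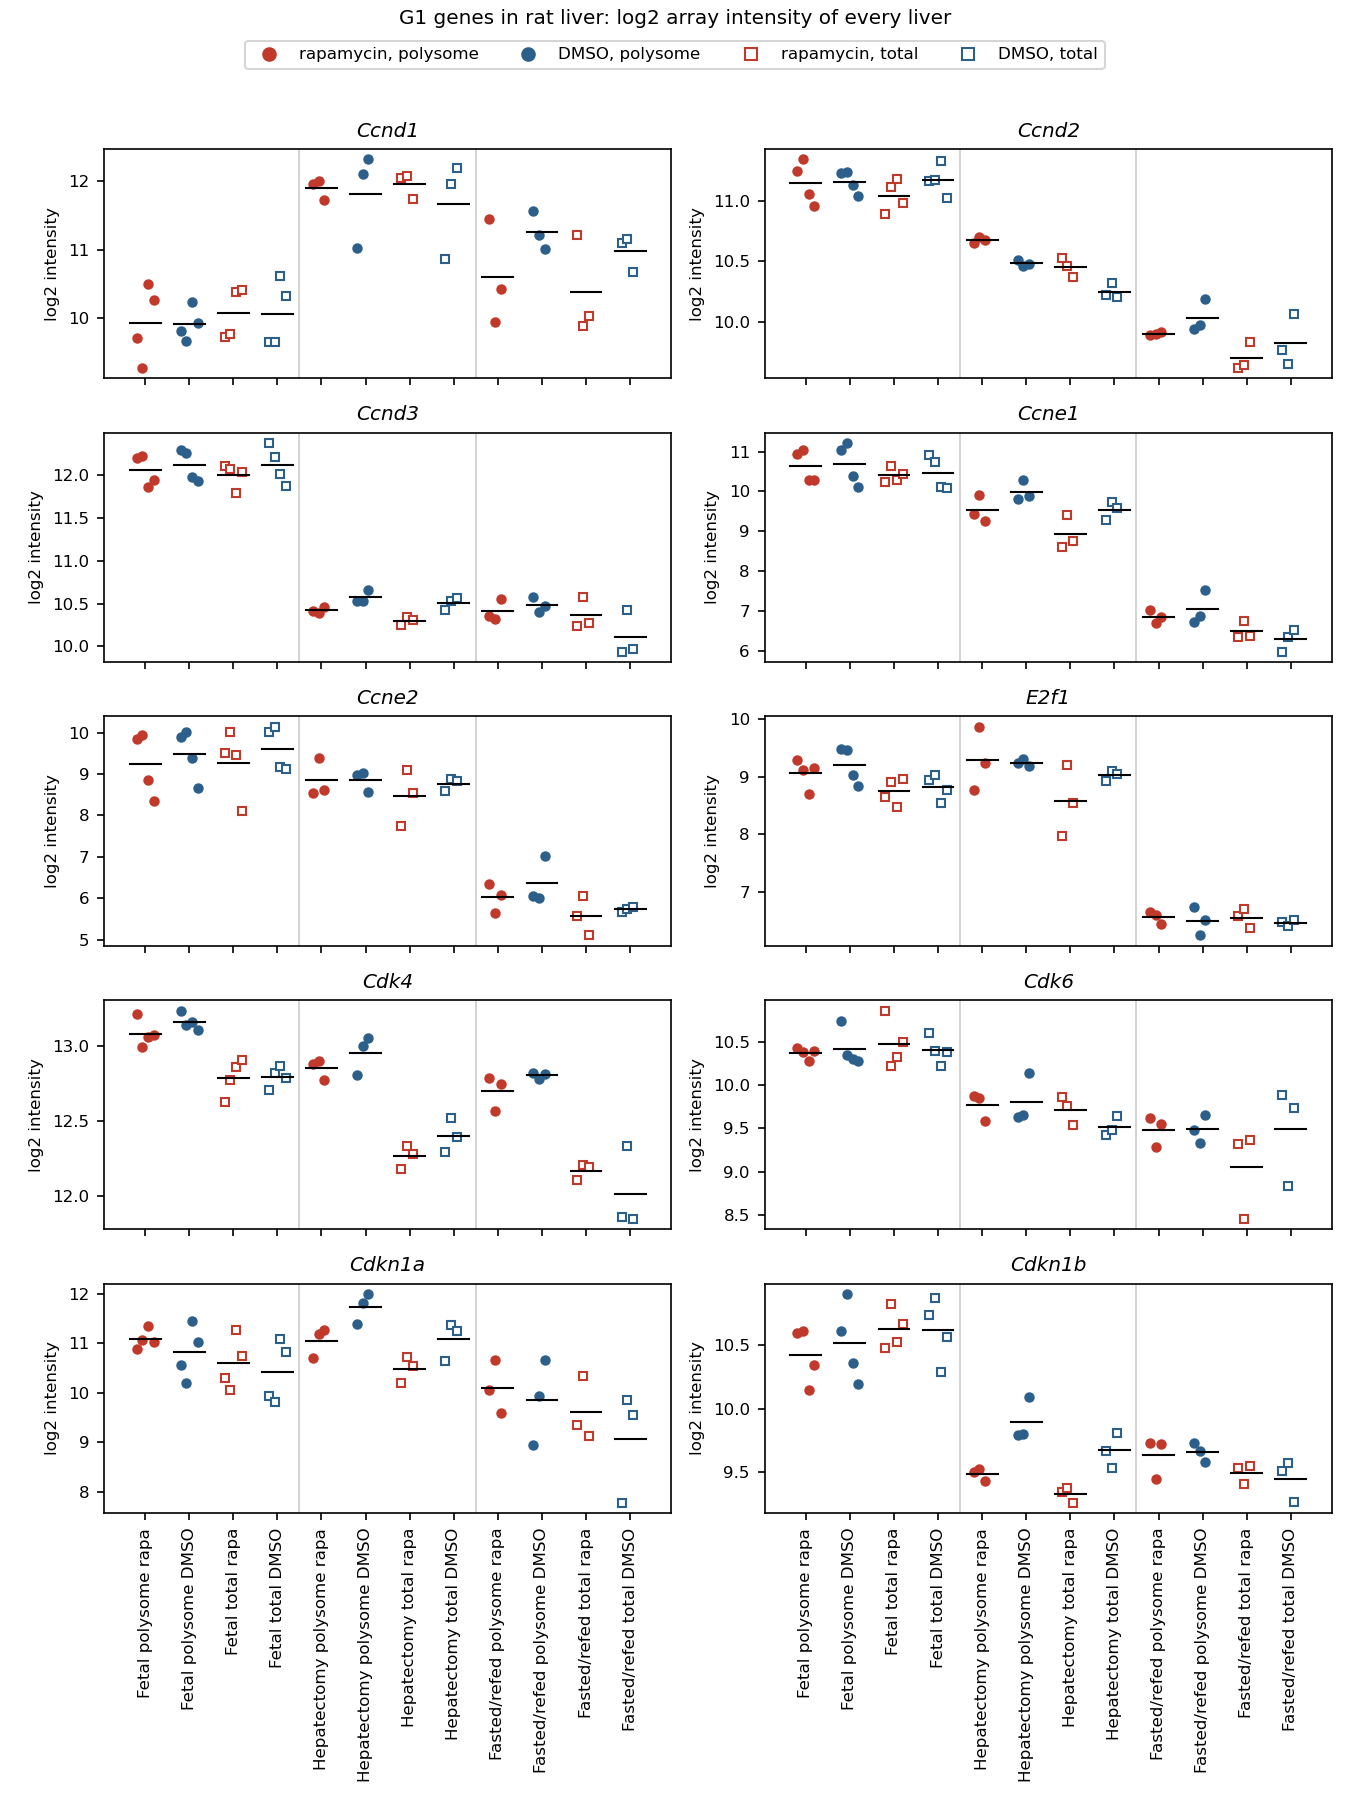
Log2 intensity of each gene on every array (vertical axes, each on its own scale) in the 12 groups (horizontal axis), with 1 point per liver and a black line at the group mean. Ccne1, Ccne2 and E2f1 lay at 5.11 to 7.53 in all fasted/refed livers and at 7.75 to 11.21 in all fetal and hepatectomy livers, and the 4 fetal groups had the lowest means of Ccnd1.

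Most of the called differences among the 10 genes lay between the 3 growth models. In DMSO total RNA the E-type cyclins and E2f1 stood 5.13- to 18.1-fold higher in fetal and hepatectomy than in fasted/refed livers. The D-type cyclins split, with Ccnd2 and Ccnd3 highest in fetal liver and Ccnd1 lowest there. Age, surgery, fasting and the time from injection also differed between the models and cannot be told apart from cell division here. Of the 10 genes, 9 were higher and 1 was lower in fetal than in fasted/refed total RNA (limma, adjusted p under 0.05), where 47.1% of all transcript clusters passed, 28.1% higher and 19% lower. Between fetal and hepatectomy livers 6 were higher and 1 was lower (background 36.9%, with 19.9% higher and 17% lower). Between hepatectomy and fasted/refed livers 7 were higher and 0 lower by limma (background 17.5%, with 12.4% higher and 5.03% lower). The median difference of the 10 genes was 1.35, 0.87 and 0.55 on the log2 scale in these comparisons, against 0.04, 0.04 and 0.02 for all tested. In polysome RNA the counts were 8 higher and 1 lower (background 50.6%, with 23.6% higher and 27% lower), 5 higher and 1 lower (background 50.2%, with 23.5% higher and 26.7% lower), and 5 higher (background 12.7%, with 7.86% higher and 4.83% lower). There the medians were 1.04, 0.61 and 0.50, against −0.05, −0.04 and −0.02.

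**Figure D2:**
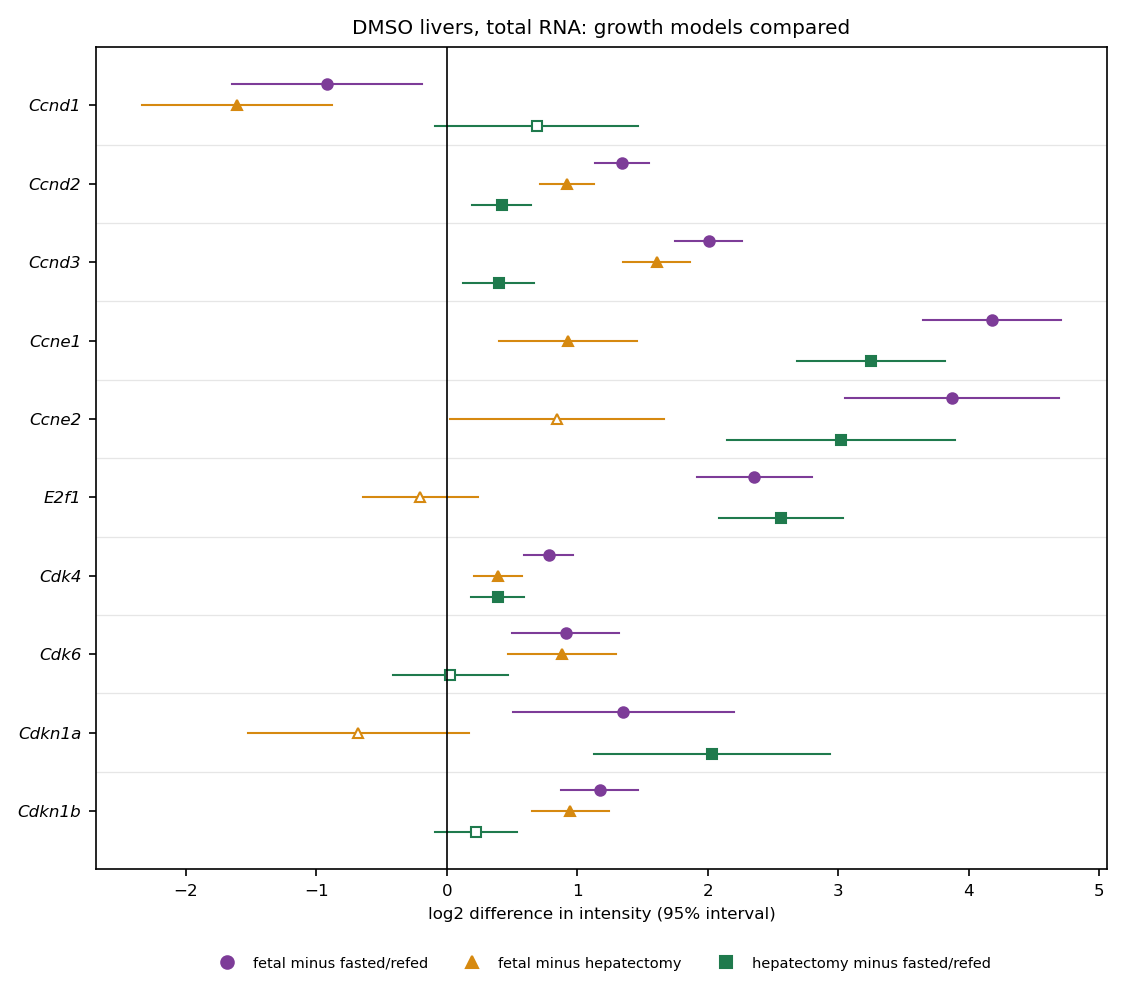
Differences in log2 intensity between the models in DMSO total RNA (horizontal axis, with 95% intervals) for the 10 genes (vertical axis), with filled symbols at an adjusted p under 0.05. Ccne1, Ccne2 and E2f1 were 2.36 to 4.18 higher in both dividing models than in fasted/refed liver, and Ccnd1 lay left of 0 in both fetal comparisons.

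Ccnd1 was the only one of the 10 genes called lower in fetal liver. In total RNA of DMSO livers it read 9.65, 9.66, 10.62 and 10.32 in fetuses, 10.86, 11.96 and 12.19 after hepatectomy, and 11.11, 11.16 and 10.68 after refeeding. Every fetal liver lay below every adult liver, and hepatectomy liver 1 lay among the fasted/refed livers. Fetal livers were lower than hepatectomy livers by a log2 difference of −1.61 ± 0.358 (SE, adjusted p = 0.000529) and than fasted/refed livers by −0.92 ± 0.358 (adjusted p = 0.0345), and on polysomes by −1.91 (adjusted p = 4.43e-05) and −1.35 (adjusted p = 0.00208). Hepatectomy minus fasted/refed was 0.69 ± 0.382 in total RNA (95% interval −0.09 to 1.47, adjusted p = 0.226) and 0.55 on polysomes (adjusted p = 0.407), not past the threshold. The fetal against fasted/refed call in total RNA was lost without fetal liver 1 or 2 or without fasted/refed liver 1 or 2, at adjusted p of 0.0958 to 0.0978.

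The other D-type cyclins followed a different order. Ccnd3 read 12.38, 12.21, 12.02 and 11.88 in fetal DMSO total RNA, 10.43, 10.53 and 10.57 after hepatectomy, and 9.94, 10.43 and 9.97 after refeeding. All fetal livers lay over 1 log2 unit above all adult livers, and the fetal excess was 1.61 ± 0.126 over hepatectomy (fold 3.05, adjusted p = 2.78e-12) and 2.01 over refed livers (fold 4.02, adjusted p = 8.64e-15). The hepatectomy excess of 0.40 ± 0.135 in total RNA (adjusted p = 0.0385) passed in 3 of 12 alternative fits, with adjusted p of 0.00295 to 0.285, and was lost without any 1 of hepatectomy livers 1, 2 and 3 or fasted/refed livers 1 and 3. Ccnd2 read 11.16, 11.17, 11.33 and 11.02 in fetal, 10.22, 10.32 and 10.20 in hepatectomy and 9.77, 9.65 and 10.07 in fasted/refed livers. The 3 models did not overlap for Ccnd2, and each step was called, at 0.92 ± 0.103 for fetal minus hepatectomy (adjusted p = 8.49e-09) and 0.42 ± 0.11 for hepatectomy minus fasted/refed (adjusted p = 0.00726). With these groups alone in the fit the hepatectomy excess was not past the threshold in total RNA (adjusted p = 0.242) or on polysomes (0.45, adjusted p = 0.0806).

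The E-type cyclins, which activate Cdk2 at the border of G1 and S, showed the widest range. Ccne1 read 10.92, 10.73, 10.12 and 10.08 in fetal DMSO total RNA, 9.28, 9.73 and 9.59 after hepatectomy, and 5.97, 6.35 and 6.53 after refeeding. The 3 models did not overlap, with log2 differences of 4.18 ± 0.259 for fetal minus fasted/refed (fold 18.1, adjusted p = 6.75e-15), 3.25 ± 0.277 for hepatectomy minus fasted/refed (fold 9.52, adjusted p = 1.01e-10) and 0.93 ± 0.259 for fetal minus hepatectomy (adjusted p = 0.00488). Ccne2 read 10.02, 10.14, 9.17 and 9.11 in fetuses, 8.58, 8.87 and 8.84 after hepatectomy, and 5.67, 5.75 and 5.80 after refeeding. Its excess over fasted/refed liver was 3.87 ± 0.402 in fetuses (fold 14.6, adjusted p = 1.18e-09) and 3.02 ± 0.43 after hepatectomy (fold 8.13, adjusted p = 3.01e-06). Fetal minus hepatectomy was 0.85 for Ccne2, without overlap but not past the threshold (adjusted p = 0.0991, or 0.0392 with these groups alone in the fit). On polysomes the fetal excess of Ccne1 over hepatectomy, 0.69 (adjusted p = 0.0261), was lost without fetal liver 1 or 2 or hepatectomy liver 1 or 3, at adjusted p of 0.083 to 0.11, with a common median (0.0921) and with these groups alone in the fit (0.0516).

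E2f1, the activator of S phase genes, was higher in both dividing models than in fasted/refed liver and showed no called difference between them. It read 8.94, 9.03, 8.54 and 8.76 in fetal DMSO total RNA, 8.92, 9.10 and 9.05 after hepatectomy, and 6.48, 6.40 and 6.50 after refeeding. Hepatectomy minus fasted/refed was 2.56 ± 0.232 (fold 5.91, adjusted p = 3.4e-10) and fetal minus fasted/refed 2.36 ± 0.217 (fold 5.13, adjusted p = 7.99e-11), whereas fetal minus hepatectomy was −0.20 with a 95% interval of −0.65 to 0.24 (adjusted p = 0.495).

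The kinases moved less. Cdk4 read 12.71, 12.82, 12.86 and 12.79 in fetal DMSO total RNA, 12.29, 12.52 and 12.39 after hepatectomy, and 11.86, 12.33 and 11.85 after refeeding. Fetal livers lay above all adult livers, by 0.78 ± 0.092 over fasted/refed (adjusted p = 1.55e-08) and 0.39 ± 0.092 over hepatectomy livers (adjusted p = 0.000934). The hepatectomy excess over fasted/refed, 0.39 ± 0.0983 (adjusted p = 0.00535), came with overlapping livers and was lost without fasted/refed liver 1 or 3 (adjusted p = 0.055 and 0.0574) or with these groups alone in the fit (adjusted p = 0.235). Cdk6, the partner that is prominent in blood-forming cells, averaged 10.40 ± 0.157 in fetal, 9.52 ± 0.117 in hepatectomy and 9.49 ± 0.565 in fasted/refed livers (SD, n = 4, 3 and 3). Fetal livers were higher by 0.88 than hepatectomy livers (adjusted p = 0.000735) and by 0.91 than fasted/refed livers (adjusted p = 0.000381), and hepatectomy minus fasted/refed was 0.03 with a 95% interval of −0.41 to 0.47. On polysomes the fetal excess of Cdk6 over hepatectomy, 0.60 (adjusted p = 0.0135), was lost without fetal liver 1 or hepatectomy liver 1 or 2 (adjusted p of 0.0563 to 0.068), and that of Cdk4, 0.21 (adjusted p = 0.0608), was called without hepatectomy liver 3 (adjusted p = 0.0463) and with cyclic loess scaling (0.41, adjusted p = 2.01e-05).

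The inhibitors differed from each other in order. Cdkn1a (p21) read 9.94, 9.81, 11.09 and 10.83 in fetal DMSO total RNA, 10.65, 11.38 and 11.26 after hepatectomy, and 7.78, 9.86 and 9.56 after refeeding. It was 2.03 ± 0.445 higher after hepatectomy than in fasted/refed livers, with no overlap (fold 4.09, adjusted p = 0.00133, or 0.0611 with these groups alone in the fit). Fetal minus fasted/refed was 1.35 ± 0.416 (adjusted p = 0.00783) and rested on fasted/refed liver 1, without which it was 0.71 (adjusted p = 0.172), and was also lost with these groups alone in the fit (adjusted p = 0.0732). On polysomes that difference was 0.96 (adjusted p = 0.053), called without fetal liver 2 (1.17, adjusted p = 0.0291) or fasted/refed liver 3 (1.37, adjusted p = 0.0136) and with cyclic loess scaling (1.06, adjusted p = 0.0286). Fetal minus hepatectomy on polysomes was −0.92 (adjusted p = 0.065), called without fetal liver 3 (−1.14, adjusted p = 0.0321), with a common median (−1.04, adjusted p = 0.0312) and with these groups alone in the fit (adjusted p = 0.02). Cdkn1b (p27) read 10.74, 10.88, 10.29 and 10.57 in fetuses, 9.67, 9.53 and 9.81 after hepatectomy, and 9.51, 9.57 and 9.26 after refeeding. Fetal livers lay above all adult livers, by 0.95 ± 0.144 over hepatectomy (adjusted p = 2.63e-06) and 1.17 ± 0.144 over fasted/refed (adjusted p = 3.68e-08), and hepatectomy minus fasted/refed was 0.23 (95% interval −0.09 to 0.54, adjusted p = 0.338).

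For some of the 10 genes, fetal livers of one number ranked alike in both treatments. In total RNA of livers 1 to 4, Ccne2 read 9.51, 10.01, 9.47 and 8.10 with rapamycin and 10.02, 10.14, 9.17 and 9.11 with DMSO, and Cdkn1a read 10.29, 10.06, 11.28 and 10.75 with rapamycin and 9.94, 9.81, 11.09 and 10.83 with DMSO. In total RNA Cdkn1a was thus lowest in livers 1 and 2 and highest in liver 3 under both treatments. Ccne2 was highest in liver 2 and lowest in liver 4. Ccne1 did not keep its order, at 10.25, 10.63, 10.30 and 10.44 with rapamycin and 10.92, 10.73, 10.12 and 10.08 with DMSO. The mean of the erythroid markers in the same livers was 12.33, 12.37, 11.73 and 11.81 with rapamycin and 12.44, 12.36, 11.69 and 11.62 with DMSO. The part of these cells in the fetal levels of the 10 genes was not tested.

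Other genes of the pathway were counted in the same comparisons of DMSO total RNA. Of 15 measured E2F target genes of S phase, 15 were higher in fetal than in fasted/refed livers (median 2.99) and 15 after hepatectomy (median 2.29), with Rrm2, a subunit of ribonucleotide reductase, at 6.12 and 6.57 and Mcm5, a subunit of the replicative helicase, at 4.05 and 3.51. Among other G1 and S regulators 6 of 10 and 5 of 10 were higher, led by Ccna2, the S phase cyclin, at 4.88 and 5.14, and Myc was 1.83 and 1.33 higher. Of 3 other kinase inhibitors measured, 2 were higher and 1 lower in fetuses and 1 was higher after hepatectomy. Cdkn2c (p18) was higher in both (2.44 and 2.88), and Cdkn1c (p57) was higher in fetuses, by 3.75 over fasted/refed and 3.86 over hepatectomy livers. Of 7 pocket protein, E2F and DP genes 4 and 3 were higher, among them E2f8 (3.00 and 1.92) and Tfdp2, a partner of E2F factors (4.39 and 1.25). Of 5 measured parts of ubiquitin ligases 2 and 3 were higher, and Skp2, which targets p27 for destruction, was 2.63 higher in fetuses and 1.28 higher after hepatectomy. Of 12 other p53 targets, 3 were higher and 4 lower in fetal than in fasted/refed livers and 1 was higher after hepatectomy, Tp53inp1 (1.18, adjusted p = 0.00923).

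Rapamycin was compared with DMSO in each model to ask what mTOR inhibition does to these mRNAs. After hepatectomy, Cdkn1b fell on polysomes and the other 9 genes did not pass. In the same main fit 8 of 9 mitosis genes and 3 or 4 of 15 S phase genes farther down the pathway fell. The difference between these lists and the 10 genes was not tested. Among the members the count was 1 of 10 on polysomes, against a background of 6.35% of all transcript clusters, 2.26% higher and 4.1% lower. It was 0 of 10 in total RNA by limma, against 5.01%, with 1.47% higher and 3.54% lower (5 members at an unadjusted p under 0.05, 4 of them lower, where 23.6% of all tested had such a p, 8.96% higher and 14.7% lower). The median difference of the 10 genes was −0.07 on polysomes and −0.26 in total RNA, against −0.01 and −0.02 for all tested.

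Cdkn1b on polysomes read 9.50, 9.52 and 9.43 in rapamycin livers, against 9.79, 9.80 and 10.09 in DMSO livers. In total RNA it read 9.34, 9.37 and 9.26 with rapamycin, against 9.67, 9.53 and 9.81 with DMSO. The groups did not overlap in either fraction. The polysome difference was −0.41 ± 0.105 (SE, fold 0.751, adjusted p = 0.0415), and that in total RNA −0.35 ± 0.105 (adjusted p = 0.075). The polysome call held in 4 of 12 alternative fits, with adjusted p of 0.0248 to 0.188, and was lost without rapamycin liver 1, 2 or 3 or DMSO liver 2 or 3, without the filter (0.0556) and with cyclic loess scaling (0.0563).

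Cdkn1a on polysomes read 10.71, 11.19 and 11.27 in rapamycin livers, against 11.40, 11.83 and 11.997 in DMSO livers. In total RNA it read 10.20, 10.72 and 10.54 with rapamycin, against 10.65, 11.38 and 11.26 with DMSO. The polysome groups did not overlap, and in total RNA only DMSO liver 1 lay within the rapamycin range. The differences, −0.68 ± 0.222 on polysomes (adjusted p = 0.0818) and −0.61 ± 0.222 in total RNA (adjusted p = 0.125), were not past the threshold. Without DMSO liver 1 they were −0.86 (adjusted p = 0.0333) and −0.83 (adjusted p = 0.0388), which passed.

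Ccne1 in total RNA read 8.59, 9.41 and 8.75 in rapamycin livers, against 9.28, 9.73 and 9.59 in DMSO livers. Rapamycin liver 2 lay within the DMSO range, and the difference of −0.62 ± 0.228 (adjusted p = 0.129) became −0.86 (adjusted p = 0.0394) without it. Its polysome difference was −0.47 (adjusted p = 0.223). Liver 2 was the highest of the 3 rapamycin livers for Ccne2 and E2f1 as well: E2f1 in total RNA read 7.97, 9.20 and 8.54 with rapamycin, against 8.92, 9.10 and 9.05 with DMSO, and Ccne2 read 7.75, 9.10 and 8.54 against 8.58, 8.87 and 8.84. The SDs (n = 3) were 0.614 with rapamycin and 0.092 with DMSO for E2f1, and 0.679 and 0.162 for Ccne2. The differences of −0.45 for E2f1 (adjusted p = 0.357) and −0.30 for Ccne2 (adjusted p = 0.568) were not past the threshold.

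Ccnd1, the growth-responsive D-type cyclin, showed no called change with rapamycin. On polysomes it read 11.96, 12.01 and 11.72 in rapamycin livers, against 11.03, 12.10 and 12.32 in DMSO livers, and in total RNA 12.05, 12.08 and 11.74 against 10.86, 11.96 and 12.19. DMSO liver 1 was the lowest of the 6 livers in both fractions, and DMSO liver 3 the highest. DMSO liver 2 lay above all rapamycin livers on polysomes and among them in total RNA. The differences were 0.08 (95% interval −0.67 to 0.83) on polysomes and 0.29 (95% interval −0.47 to 1.04) in total RNA. All rapamycin livers lay above all DMSO livers for Ccnd2 in both fractions, at 0.19 ± 0.0764 (adjusted p = 0.143) and 0.21 ± 0.0764 (adjusted p = 0.132), and below them for Ccnd3, at −0.15 (adjusted p = 0.25) and −0.21 (adjusted p = 0.133), none past the threshold. Cdk4 differed by −0.10 and −0.14 (adjusted p = 0.477 and 0.353), and Cdk6 by −0.04 and 0.20 (adjusted p = 0.891 and 0.428).

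**Figure D3:**
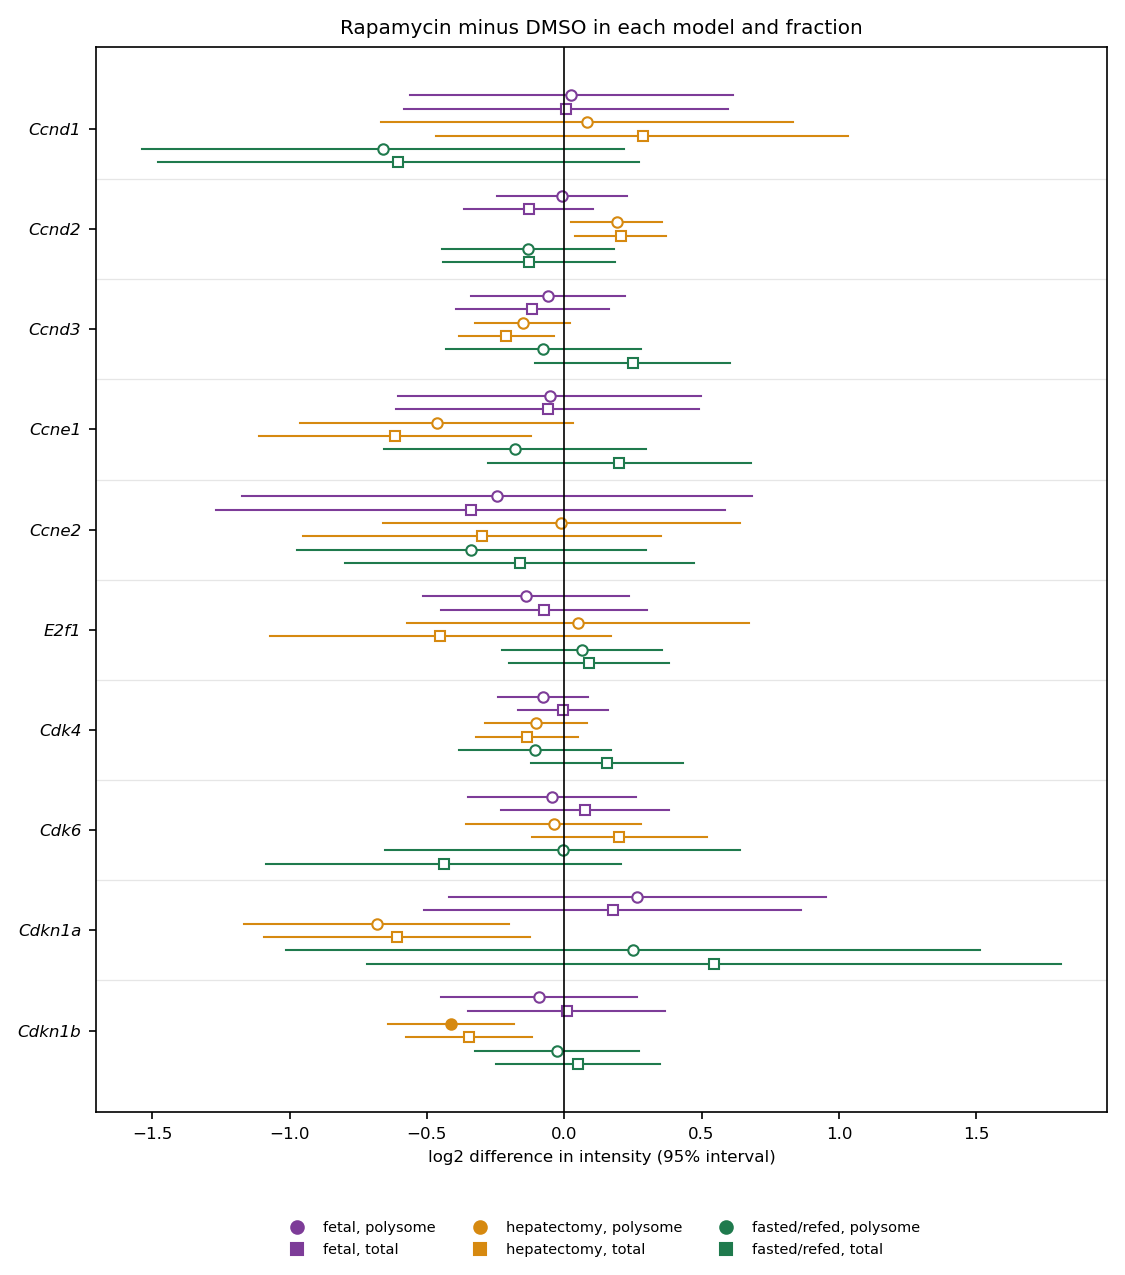
Rapamycin minus DMSO in log2 intensity (horizontal axis, with 95% intervals) for the 10 genes (vertical axis) in each model and fraction, with filled symbols at an adjusted p under 0.05. One symbol is filled, that of Cdkn1b on hepatectomy polysomes at −0.41.

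Downstream of these regulators the same livers showed called falls. Of 9 measured mitosis genes 8 fell in each fraction, with medians of −1.67 on polysomes and −1.81 in total RNA. Among them, Ccnb1, a mitotic cyclin, differed by −1.88 and −2.19. On polysomes the 9 genes averaged 8.96, 9.89 and 8.59 in rapamycin livers, against 10.64, 11.05 and 10.72 with DMSO. In total RNA they averaged 8.53, 9.64 and 8.21, against 10.27, 10.94 and 10.7. Rapamycin liver 2 was thus the highest of the 3 in both fractions, and all 3 lay below every DMSO liver. Of 15 E2F target genes 3 fell on polysomes (median −0.55) and 4 in total RNA (median −0.53): Rrm2 (−1.19 and −1.25), the thymidine kinase gene Tk1 (−0.83 and −1.04) and Mybl2, a transcription factor of S phase (−1.28 and −1.35), in both, and Rrm1 (−0.95) in total RNA. Ccna2 fell, with −1.34 (adjusted p = 0.0368) and −1.82 (adjusted p = 0.0199), and with Ccng1, a p53 target, made 2 of 10 other G1 and S regulators in each fraction. Of 7 measured pocket protein, E2F and DP genes, E2f8 fell in both fractions (−0.92 and −0.99) and E2f5 in total RNA (−1.21). Of 5 ubiquitin ligase parts Fzr1, an activator of the anaphase-promoting complex, fell in both (−0.52 and −0.40) and Cks1b, a cofactor of Skp2, in total RNA (−0.37). Tp53inp1 was the 1 that fell (−0.53 and −0.55) in the list of 12 other p53 targets, which does not hold Ccng1. Of 3 other kinase inhibitors 0 passed by limma, with Cdkn2c at −0.89 (adjusted p = 0.0742) and −1.01 (adjusted p = 0.0584). In these livers the mean of the 7 endothelial markers was 9.70 to 9.81 with rapamycin and 9.03 to 9.54 with DMSO on polysomes, and 10.09 to 10.21 against 9.47 to 9.82 in total RNA. Of the 7, 3 rose in each fraction. The mean of the 6 stellate markers was 8.96 to 9.22 with rapamycin and 8.48 to 9.10 with DMSO on polysomes, and 9.85 to 10.01 against 9.39 to 9.72 in total RNA. That of the 10 macrophage markers was 10.46 to 10.60 with rapamycin and 9.92 to 10.39 with DMSO on polysomes, and 10.48 to 10.70 against 10.33 to 10.69 in total RNA. On polysomes 1 of the 6 and 1 of the 10 rose, and in total RNA 0 of either by limma, with 1 stellate and 2 macrophage markers at an unadjusted p under 0.05. The part of these cells in the results was not tested. Single arrays moved the number of transcript clusters called, 690 on polysomes and 544 in total RNA, to between 57 (without rapamycin polysome 3) and 1687 (without DMSO polysome 1), and to between 4 (without rapamycin total 1) and 847 (without DMSO total 1). The calls of single list genes were not followed through these fits. With 4 transcript clusters called, the 8 mitosis falls in total RNA cannot all have held.

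**Figure D4:**
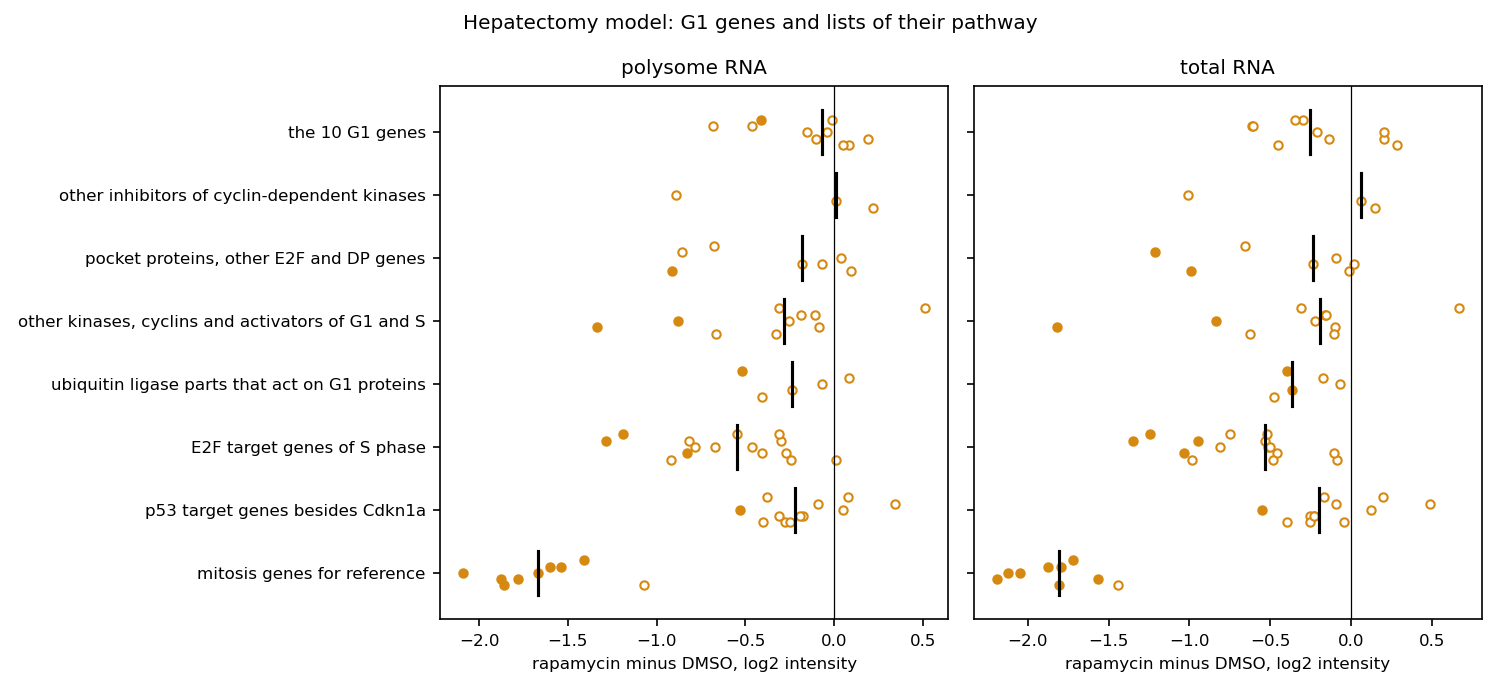
Rapamycin minus DMSO in log2 intensity after hepatectomy (horizontal axes) for the 10 genes and 7 lists of their pathway (vertical axis) in both fractions, with 1 point per gene, filled at an adjusted p under 0.05, and a black bar at the list's median. The mitosis genes have medians of −1.67 and −1.81, and the 10 G1 genes −0.07 and −0.26.

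In the other models rapamycin gave no call among the 10 genes. In fetal livers 0 of 10 passed in either fraction by limma, where the background was 0% in each. That fit did not pair the livers by number. In it 0 members had an unadjusted p under 0.05, against 2.27% of all tested on polysomes and 1.83% in total RNA. The largest fetal differences were those of Ccne2, −0.25 on polysomes and −0.34 in total RNA, and Cdkn1a, 0.27 and 0.18, all with an adjusted p of 1. In fasted/refed livers 0 of 10 passed in either fraction by limma, again with a background of 0% and 0 members at an unadjusted p under 0.05, against 4.84% of all tested on polysomes and 16.9% in total RNA. Ccnd1 there read 11.44, 9.94 and 10.42 on polysomes of rapamycin livers, against 11.57, 11.21 and 11.01 with DMSO. In total RNA it read 11.22, 9.89 and 10.02 with rapamycin, against 11.11, 11.16 and 10.68 with DMSO. Rapamycin livers 2 and 3 lay below all DMSO livers and liver 1 among or above them, and the differences were −0.66 ± 0.4 (adjusted p = 0.999) and −0.60 ± 0.4 (adjusted p = 0.455). Cdk4 in total RNA differed by 0.16 (adjusted p = 0.545), or 0.31 (adjusted p = 0.0318) without DMSO liver 2, where the transcript clusters called numbered 1756, against 0 with it.

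Whether rapamycin acted differently between models was tested as a difference of differences. The models also differed in the time from injection to sacrifice, and the fetal model in dose, which cannot be told apart from the model here. By limma 0 of the 10 passed in either fraction, for hepatectomy minus fetal (background 0.00921% in each fraction) or hepatectomy minus fasted/refed (background 0.12% on polysomes and 0.516% in total RNA). At an unadjusted p under 0.05 there were 0 members on polysomes and 1 in total RNA in the first, where 6.53% and 6.11% of all tested had such a p, and 1 and 5 in the second, where 4.75% and 15.2% had one. For Cdkn1a the hepatectomy effect minus the fasted/refed effect was −0.93 on polysomes (95% interval −2.22 to 0.35) and −1.16 in total RNA (95% interval −2.44 to 0.13), and for Ccnd1 0.74 and 0.89 (adjusted p = 1 and 0.454). Without fasted/refed total DMSO liver 2, the differences of Ccnd3 (−0.62), Cdk4 (−0.45) and Cdk6 (0.96) in total RNA passed (adjusted p = 0.0292, 0.0165 and 0.0247), where the transcript clusters called numbered 1135 of 10860, against 56 with it.

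With rapamycin present in both models, the step between hepatectomy and fasted/refed livers remained large for the genes of late G1. Of the 10 genes 5 were higher after hepatectomy in total RNA (background 6.47%, with 3.9% higher and 2.58% lower) and the same 5 on polysomes (background 9.29%, with 5.19% higher and 4.1% lower), with medians of 0.82 and 0.86 against −0.03 and −0.02 for all tested. They were Ccne1 (2.43 and 2.68), Ccne2 (2.89 and 2.82), E2f1 (2.02 and 2.73), Ccnd2 (0.75 and 0.77) and Ccnd1 (1.58 ± 0.382, adjusted p = 0.00764, and 1.30 ± 0.382, adjusted p = 0.0261). Cdkn1a, called in DMSO livers, differed by 0.88 (adjusted p = 0.291) and 0.95 (adjusted p = 0.2) here. The Ccnd1 calls were lost without fasted/refed rapamycin liver 2 or 3 in total RNA, and on polysomes without those or any 1 hepatectomy liver (adjusted p of 0.0517 to 0.176). Cdk6 in total RNA, at 0.67 (adjusted p = 0.0594), was called without fasted/refed liver 1 or 3 (adjusted p = 0.0421 and 0.0348) and with cyclic loess scaling (0.0443).

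Polysome RNA was compared with total RNA in DMSO livers to ask which mRNAs were more abundant in the translated pool, relative to all mRNAs on each array. Cdk4 was higher on polysomes in all 3 models, and none of the 10 genes was called lower. In each model the count of genes called higher lay near the share of all transcript clusters called higher. How many of all transcript clusters were higher in all 3 models was not counted. In fetal livers 1 of 10 was higher (background 14.5%, with 8.1% higher and 6.38% lower), after hepatectomy 3 (background 43.8%, with 28.8% higher and 15% lower) and in fasted/refed livers 2 (background 24.7%, with 19.5% higher and 5.14% lower). The median of the 10 genes was 0.01, 0.23 and 0.33 on the log2 scale, against 0.04, 0.09 and 0.10 for all tested.

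Cdk4 read 13.24, 13.14, 13.16 and 13.11 on fetal polysomes, against 12.71, 12.82, 12.86 and 12.79 in fetal total RNA. It read 12.81, 13.003 and 13.05 on hepatectomy polysomes, against 12.29, 12.52 and 12.39 in total RNA, and 12.82, 12.78 and 12.81 on fasted/refed polysomes, against 11.86, 12.33 and 11.85. The fractions did not overlap in any model. The differences were 0.37 ± 0.0777 in fetuses (adjusted p = 0.00616), 0.55 ± 0.0855 after hepatectomy (adjusted p = 0.000367) and 0.79 ± 0.126 after refeeding (adjusted p = 0.0019). Each passed in every alternative fit, 14, 12 and 12 of them, with log2 values of 0.34 to 0.41, 0.45 to 0.63 and 0.55 to 0.95. The differences between models did not pass (background 2.83% and 0%: −0.19 for fetal minus hepatectomy, adjusted p = 0.512, and −0.24 for hepatectomy minus fasted/refed, adjusted p = 1).

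After hepatectomy Cdkn1a was also higher on polysomes, at 11.40, 11.83 and 11.997 against 10.65, 11.38 and 11.26 in total RNA of the same livers (0.64 ± 0.222, adjusted p = 0.0337). Ccnd2 was higher by 0.24 ± 0.0764 (adjusted p = 0.0257). Cyclic loess scaling ended both calls (0.49, adjusted p = 0.081, and 0.08, adjusted p = 0.424), as did leaving out DMSO polysome 2 or 3 or total 1 for Cdkn1a, and DMSO polysome 1 or total 1 or 3 for Ccnd2. In fasted/refed livers Ccne1 was higher on polysomes, at 6.71, 6.86 and 7.53 against 5.97, 6.35 and 6.53 (0.75 ± 0.218, adjusted p = 0.0273), a call lost with cyclic loess (0.0724) and without polysome 3 (0.0884) or total 1 (0.1). Ccnd3 there, at 0.37 (adjusted p = 0.114), passed without total 2 (0.53, adjusted p = 0.0152), with all 40 arrays in the fit (0.0325) and with a common median (0.0486), and the common median also passed Cdkn1b after hepatectomy (0.29, adjusted p = 0.0473).

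Since each liver gave both fractions, the fit was repeated with the liver as a block, which raised the counts to 2 of 10 in fetal, 7 in hepatectomy and 3 in fasted/refed livers. It added E2f1 in fetuses (0.38, adjusted p = 0.0301), Ccne1 (0.46, adjusted p = 0.000506), Cdk6 (0.29, adjusted p = 0.00696), Cdkn1b (0.23, adjusted p = 0.0194) and E2f1 (0.22, adjusted p = 0.0294) after hepatectomy, and Cdkn1a (0.79, adjusted p = 0.0105) after refeeding. Over all tested it raised the calls from 1573 to 3044, from 4758 to 6629 and from 2679 to 4615. The rapamycin effect did not differ between the fractions for any of the 10 genes by limma (0 called in each model, background 0%, and 0 at an unadjusted p under 0.05), with E2f1 after hepatectomy farthest apart at 0.50 (95% interval −0.38 to 1.38).

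**Figure D5:**
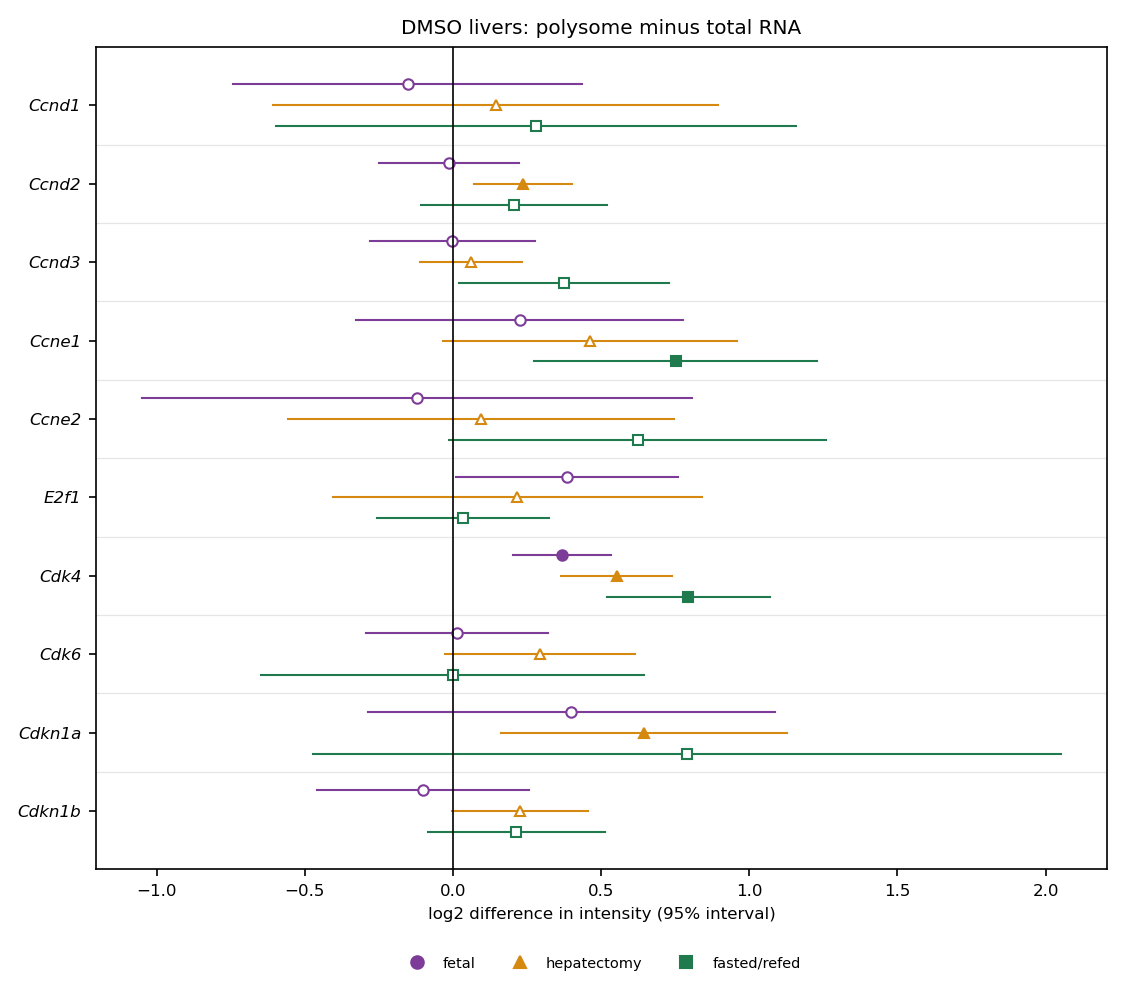
Polysome minus total RNA in log2 intensity in DMSO livers (horizontal axis, with 95% intervals) for the 10 genes (vertical axis) in the 3 models, with filled symbols at an adjusted p under 0.05. Cdk4 lies right of 0 with filled symbols in all 3 models, at 0.37, 0.55 and 0.79.

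Among the other genes of the pathway, Cks1b and Mnat1, a subunit of the kinase that activates Cdk4 and Cdk2, were likewise higher on polysomes in fetal, hepatectomy and fasted/refed livers. Cks1b differed by 0.70, 1.00 and 1.25 and Mnat1 by 0.64, 0.79 and 0.94. Cdkn2c was higher after hepatectomy (0.83) and refeeding (1.33), as was E2f5 (1.42 and 1.71). Of the 15 E2F target genes 0 passed in fetuses by limma, 2 were lower after hepatectomy, the helicase genes Mcm2 (−0.86) and Mcm7 (−0.65), and 2 were higher after refeeding, Pcna (0.96) and Tyms (0.71).

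The order of the 12 group means set the genes apart. For Ccnd1 the 4 hepatectomy groups came first (11.96 down to 11.67), then the fasted/refed and the fetal groups (down to 9.91), and none of the 11 steps between neighbours exceeded the larger of the 2 SDs. Ccnd2, Ccnd3, Ccne1, Ccne2, Cdk6 and Cdkn1b had the 4 fetal groups first, and for each but Ccne2 the step below the last fetal group exceeded that SD. For Ccnd2, Ccne1, Ccne2 and E2f1 the step above the first fasted/refed group exceeded it. Cdk4 was ordered partly by fraction, with 5 polysome groups on top (13.16 down to 12.81) and 4 adult total RNA groups at the bottom (down to 12.01). Cdkn1a ran from 11.74 on hepatectomy DMSO polysomes to 9.07 in fasted/refed DMSO total RNA.

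As a description, the genes whose pattern over the 12 group means was most like that of each member were found by Pearson's r, over means that share arrays, models and normalization. Ccne1 was closest to Plk4, Hist1h2ail1 and H2bc18 (r = 0.991 each), Ccne2 to Mcm5 (0.991), Ccne1 (0.989) and Mcm6 (0.984), and E2f1 to Zfp367 (0.989), Tcf19 (0.986) and Cdca3 (0.98). Ccnd3 was closest to Rbp2 (0.997), Kcnab2 (0.995) and Prkar2b (0.994), Cdkn1b to Ppox (0.988), Mllt3 (0.985) and Plek2 (0.983), and Cdk4 to Raly (0.991), Snx12 (0.985) and Rnaseh2b (0.984). Cdkn1a was closest to Cdkn2c (0.972), Gins4 and Ska2 (0.968 each), Ccnd1 to Zdhhc21 (0.968), Srms (0.966) and Dpysl5 (0.965), Ccnd2 to Pde5a (0.983), Sesn1 (0.978) and Fabp5 (0.977), and Cdk6 to Parvb (0.972), Pde5a (0.97) and Ston2 (0.968). Over the 40 single arrays these values were 0.974 to 0.989 for Ccnd3 and 0.659 to 0.765 for Cdkn1a.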

How the data were processed

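The values were the authors' deposited array intensities on a linear scale, 1 per transcript cluster and array, and the submitters' processing notes name RMA (robust multi-array averaging) as the tool. Its version and any genome build were not given in the sources used here. After normalization values are relative to the other mRNAs of an array, and a shift shared by every mRNA may drop out. Intensities were log2-transformed with no pseudocount. The 10860 transcript clusters tested had a gene symbol and a mean log2 intensity at or above the 30th percentile of the 15515 named ones, 6.7. Groups came from the sample labels.

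Comparisons were fitted with limma 3.58.1 in R 4.3.3 (moderated variance with an intensity trend), with two-sided p-values adjusted by the Benjamini-Hochberg method over all tested and a threshold of 0.05. Fits within a model used that model's arrays, and fits between models all 40. Replicates are biological, per the labels, and p-values measure the spread between the arrays of a group. The main fits had no block for the liver. They counted the polysome and total RNA arrays of a liver as independent, although these arrays share that liver. Where a fit holds both fractions, its p-values therefore rest on more arrays than separate livers. Errors beside differences are standard errors (SE), beside means standard deviations (SD). Members, lists and tests were chosen with earlier results of these data known. All 10 members were named, up to 4 genes past the threshold per pathway list, and the 3 genes most like each member. The code was tested on simulated data with known changes.

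Livers pair the fractions: deviations of the 2 arrays of a liver from their group means correlated at 0.33 to 0.69 in fetal, 0.51 to 0.72 in hepatectomy and 0.46 to 0.82 in fasted/refed livers. Same-numbered fetal livers of the 2 treatments correlated at 0.42 to 0.75, which was taken as pairing. The main fetal fits did not use this pairing, and only the fits with a replicate block did.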

Additional observations from a re-analysis of the deposited data

Results flagged for a closer look

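Of 40 groups of 4 fetal arrays (10 genes in 4 groups) examined for a single array far from the rest, 1 was singled out, where chance gives about 1 in 20. Cdk6 read 10.74 on polysomes of fetal DMSO liver 1, and the nearest of the other 3 read 10.35, a gap of 0.85 of the group's whole range. Total RNA of the same liver read 10.60, the highest of its group. The groups of 3 adult livers were not examined in this way.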

How the results depend on the processing

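With rapamycin on hepatectomy polysomes, 0 of the 10 genes passed without the filter, 0 with cyclic loess and 0 with all 40 arrays in the fit, against 1. Replicate numbers did not pair adult livers across treatments (correlations of −0.07 to 0.28 after hepatectomy and −0.62 to 0.39 in fasted/refed livers). With the number as a replicate block, 3 genes passed on hepatectomy polysomes and 2 in total RNA: Cdkn1a (adjusted p = 0.00184 and 0.00244), Ccne1 (0.0279 and 0.00853) and, on polysomes, Cdkn1b. In fetal livers, where numbers pair, the block changed no call. In polysome against total RNA, cyclic loess left 1 gene after hepatectomy and 1 after refeeding, all 40 arrays left 1 after hepatectomy, and the liver block gave 7 after hepatectomy and 2 in fetuses. For hepatectomy minus fasted/refed in DMSO total RNA, the 2 groups alone gave 3 genes, against 7. The causes were not tested.

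Leaving out 1 array gave 0 to 2 genes for rapamycin on hepatectomy polysomes and 0 to 1 in total RNA, 0 to 1 in fasted/refed total RNA and 0 in the other rapamycin comparisons. It gave 1 to 3 genes for polysome against total RNA after hepatectomy and 1 to 3 after refeeding, and 1 in fetuses. Between models in DMSO livers it gave, for hepatectomy minus fasted/refed, 5 to 7 in total RNA (1119 to 2890) and 5 on polysomes (892 to 1186). For fetal minus fasted/refed it gave 8 to 10 (4482 to 5191) and 9 to 10 (4932 to 5382), and for fetal minus hepatectomy 7 (3222 to 3783) and 4 to 7 (4662 to 5234). In rapamycin livers it gave 4 to 6 (464 to 581) and 4 to 5 (651 to 751). For the difference of the rapamycin effect between hepatectomy and fasted/refed total RNA it gave 0 to 3 (4 to 1135). No called difference turned its sign in any fit run, and the variance model without a trend changed no call.

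Over all tested, the calls on hepatectomy polysomes became 193 with all 40 arrays and 1481 with the block (690 before), and in total RNA 217 and 1246 (544). With all 40 arrays 349 passed for rapamycin in fasted/refed total RNA (0 before). Fits of the compared groups alone gave 620 (1898) for hepatectomy and 3402 (5114) for fetal against fasted/refed total RNA. The median of all polysome minus total differences in fasted/refed livers was 0.10, 0.22 with a common median and 0.00 with cyclic loess. Of 120 group levels, 19 moved by over 1 SD with cyclic loess. With 3 or 4 livers a group, changes smaller than the intervals given were not detectable.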
